A study of Homo sapiens and Mus musculus with 25 samples.

Results

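The 5 antibodies against H3K4me1 in K562 cells were compared through their lists of high-confidence peaks, 5 of the 25 samples of the series. They are, by maker, Abcam ab8895, Thermo Fisher 710795, EpiGentek A-4031-050, Active Motif 39635 and Cell Signaling Technologies 5326 BF, called below by catalogue number. All samples with this target in K562 were taken, and every base of chromosomes 1 to 22 and X was given the number of lists, 0 to 5, that cover it. A base in 5 of 5 lists is called core, and a base in 1 list only is called a single-list base.

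H3K4me1 is monomethylation of lysine 4 of histone H3. In mammals it is laid down largely by KMT2C and KMT2D (MLL3 and MLL4), marks enhancers and the flanks of promoters, and spreads over the bodies of active genes near their starts. At the start of an active gene the same lysine is usually trimethylated, and H3K4me1 is then low at the start itself. An antibody that also binds the di- or trimethylated lysine, or unmodified tails, can give a different map from the same chromatin.

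K562 is an established human line from a chronic myeloid leukaemia with erythroid and megakaryocytic features, and no treatment or edited allele is labelled. Chromatin was profiled by internally calibrated ChIP-seq: barcoded semi-synthetic nucleosomes of known modification are added to it before immunoprecipitation. All 5 libraries had 8 amplification cycles and the same input chromatin (AR16), and the 4 H3K4me2 and 8 H3K4me3 antibodies set beside them were also used in untreated K562. The labels name no separate cultures, so every spread below is between antibodies and not between biological replicates.

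Promoters whose transcription start site (TSS) was in few or in all lists are shown, because the core share at the TSS differed with promoter CpG content. The RefSeq promoter windows (GRCh38.p14, 250 bases before to 50 after the start, with CpG in capitals) of 4 genes, matched by symbol and chosen after their values were seen, read as follows.
MED13L promoter, chr12:116277644-116277943, minus strand: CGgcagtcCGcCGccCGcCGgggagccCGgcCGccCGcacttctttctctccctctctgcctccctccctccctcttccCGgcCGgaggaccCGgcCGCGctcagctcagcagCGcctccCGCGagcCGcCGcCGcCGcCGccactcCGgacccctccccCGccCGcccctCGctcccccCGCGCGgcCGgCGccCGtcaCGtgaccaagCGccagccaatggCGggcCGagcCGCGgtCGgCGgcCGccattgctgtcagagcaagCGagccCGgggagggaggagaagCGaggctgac
CDC20 promoter, chr1:43358731-43359030, plus strand: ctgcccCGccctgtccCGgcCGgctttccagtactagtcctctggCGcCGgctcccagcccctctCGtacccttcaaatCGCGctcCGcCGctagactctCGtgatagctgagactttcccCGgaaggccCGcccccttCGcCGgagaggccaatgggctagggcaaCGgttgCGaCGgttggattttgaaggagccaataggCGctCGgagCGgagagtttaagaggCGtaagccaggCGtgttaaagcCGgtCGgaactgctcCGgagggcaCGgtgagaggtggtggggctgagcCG
TUBB1 promoter, chr20:59019179-59019478, plus strand: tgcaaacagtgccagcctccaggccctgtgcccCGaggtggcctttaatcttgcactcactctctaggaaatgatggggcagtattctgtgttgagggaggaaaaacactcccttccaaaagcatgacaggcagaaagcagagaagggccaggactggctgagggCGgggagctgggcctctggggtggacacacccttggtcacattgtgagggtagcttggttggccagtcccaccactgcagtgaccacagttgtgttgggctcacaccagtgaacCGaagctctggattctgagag
CD79A promoter, chr19:41877029-41877328, plus strand: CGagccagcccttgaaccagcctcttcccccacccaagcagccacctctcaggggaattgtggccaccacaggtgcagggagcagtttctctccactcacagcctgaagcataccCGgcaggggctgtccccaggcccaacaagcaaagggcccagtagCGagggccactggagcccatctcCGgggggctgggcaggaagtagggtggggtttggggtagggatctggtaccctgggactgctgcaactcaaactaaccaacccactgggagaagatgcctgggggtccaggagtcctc
The MED13L window holds 43 CpG and the CDC20 window 28, and their TSS bases were in 1 and 2 of the 5 lists. The TUBB1 window holds 3 CpG and the CD79A window 4, and both TSS bases were in all 5 lists. All 4 promoters had core bases within 3 kb on both sides of the TSS.

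The central 300 bases of runs of core bases and of single-list bases are shown for comparison (GRCh38, CpG in capitals). The TAL1 run spans 13490 bases at and beyond the 3′ end of that gene, and its centre lies 17841 bases from the nearest coding TSS. The TFRC run spans 17291 bases in that gene, with an intronic centre 10834 bases from the TSS. The single-list run is the longest one of A-4031-050, 53646 bases in CTBP2, and its centre lies 12714 bases from the nearest coding TSS, within the reach of the run.
TAL1 core run, chr1:47214234-47214533, plus strand: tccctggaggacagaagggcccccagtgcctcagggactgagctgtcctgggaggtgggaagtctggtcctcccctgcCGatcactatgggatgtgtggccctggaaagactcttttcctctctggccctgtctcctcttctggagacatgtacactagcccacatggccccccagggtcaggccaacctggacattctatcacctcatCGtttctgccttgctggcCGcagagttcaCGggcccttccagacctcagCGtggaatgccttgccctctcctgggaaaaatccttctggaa
TFRC core run, chr3:196071106-196071405, plus strand: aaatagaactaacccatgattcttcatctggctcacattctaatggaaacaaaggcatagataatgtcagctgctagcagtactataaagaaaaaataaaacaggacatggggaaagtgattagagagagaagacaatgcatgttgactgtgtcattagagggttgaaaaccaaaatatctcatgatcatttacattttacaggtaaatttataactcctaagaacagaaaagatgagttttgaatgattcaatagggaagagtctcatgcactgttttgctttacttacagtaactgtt
Single-list run of A-4031-050, chr10:125015207-125015506, plus strand: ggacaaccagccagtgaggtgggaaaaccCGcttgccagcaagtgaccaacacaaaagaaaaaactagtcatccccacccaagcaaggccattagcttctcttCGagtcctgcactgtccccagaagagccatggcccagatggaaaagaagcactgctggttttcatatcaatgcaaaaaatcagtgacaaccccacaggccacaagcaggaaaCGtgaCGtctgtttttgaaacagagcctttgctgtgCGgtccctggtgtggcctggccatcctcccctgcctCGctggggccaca
The core centres hold 5 CpG (TAL1) and 0 CpG (TFRC), and the single-list centre holds 6 CpG. These 3 windows illustrate the classes and do not stand for their averages. The longest single-list runs of 39635 and 5326 BF were centred in assembly gaps and have no sequence to show.

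The lists differed most in how peaks were divided. The 39635 list held 39010 peaks with a median width of 25008.5 bases and covered 1593 Mb. The ab8895 list held 349557 peaks with a median width of 1005 bases and covered 1089 Mb. The 5326 BF list held 520298 peaks with a median width of 754 bases and covered 1133 Mb. The A-4031-050 list held 600205 peaks with a median width of 555 bases and covered 978 Mb. The 710795 list held 477459 peaks with quartiles of 283 and 1517 bases and covered 723 Mb. The 39635 list thus had the fewest peaks and the greatest coverage, and 710795 the least coverage. Mean coverage was 1103 ± 317 Mb (SD, n = 5 lists). Read depth behind the lists is unknown, so a base outside a list is not shown to be unmodified.

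The union of the 5 lists covered 1829 Mb, or 62.5% of the sequenced (A, C, G or T) bases of these chromosomes. Bases in 1, 2, 3, 4 and 5 lists came to 475, 316, 257, 268 and 513 Mb. The core was therefore 28.1% of the union and single-list bases 26.0%, so both ends of the scale outweighed each middle class. On average 49.6 ± 14.1% of a list was core and 6.64 ± 9.84% was in no other list (SD, n = 5 lists). By list, the core share was 71.0% for 710795, 52.5% for A-4031-050, 47.1% for ab8895, 45.3% for 5326 BF and 32.2% for 39635. The share in no other list was 1.55% for 710795, 3.54% for A-4031-050, 1.33% for ab8895, 2.59% for 5326 BF and 24.2% for 39635. The core is the same 513 Mb in every list, so the core share of a list is set by its length. Its order, from the shortest list (highest) to the longest (lowest), is therefore no separate measure of agreement. Lists were also cut to the length of the shortest by keeping the peaks of highest signal value as deposited, and 51.7% of a list was then core on average. The cut kept 14292 peaks of 39635 and all 477459 peaks of 710795, so peak strength changed along with length.

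**Figure D1:**
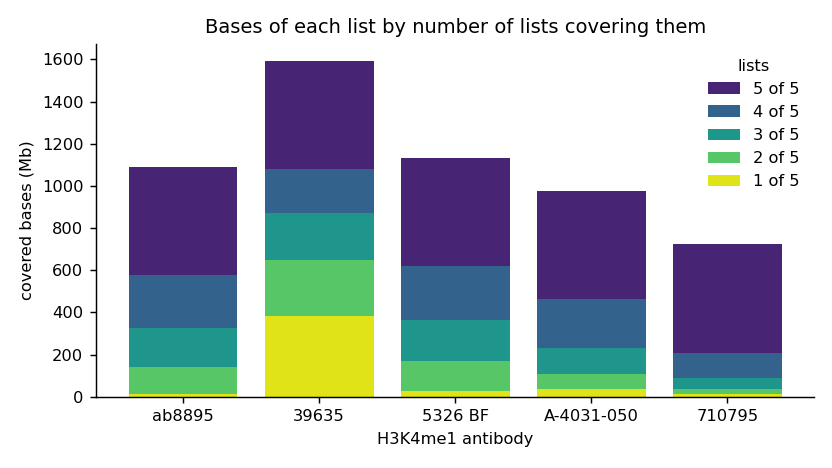
Covered bases (Mb, vertical axis) of each of the 5 H3K4me1 lists (horizontal axis), stacked by the number of lists that cover the base. The 5-of-5 block is 513 Mb in every list, and the 1-of-5 block is large in 39635 (385 Mb) and at most 34.6 Mb in the other lists.

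One list supplied most single-list bases, and another was most often the missing list. Of the single-list bases, 81.1% (385 Mb) belonged to 39635, against 7.28% for A-4031-050, 6.19% for 5326 BF, 3.06% for ab8895 and 2.36% for 710795. Among bases in exactly 4 lists, 710795 was the missing list for 54.2% and 39635 for 22.1%. A-4031-050 was missing from 12.2%, ab8895 from 6.23% and 5326 BF from 5.34%. Without 39635 the 4 remaining lists shared 572 Mb, 39.6% of their union, and without 710795 they shared 659 Mb, or 36.2%. Leaving out any of the other lists gave 29.2 to 30.4%.

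Pairs of H3K4me1 lists shared a mean of 0.558 of the bases in either list (Jaccard index), with a range of 0.358 to 0.674 over the 10 pairs. The closest pair was ab8895 and 5326 BF, and the most distant was 39635 and 710795, the longest and the shortest list. Measured against the shorter list of each pair (overlap coefficient), the shared part was 0.859 on average, with a range of 0.811 to 0.907. The mean Jaccard index was 0.558 among H3K4me1 lists and 0.286 among H3K4me2 lists, a difference of 0.273 (exact permutation test over 126 regroupings of the antibodies, p = 0.151, adjusted p = 0.151). Against 0.346 among H3K4me3 lists the difference was 0.212 (exact permutation test over 1287 regroupings, p = 0.00544, adjusted p = 0.0109). This call was lost when any 1 of the 5 H3K4me1 lists was left out (exact permutation test, adjusted p from 0.0606 to 0.0646) and without the H3K4me3 antibody ab8580 (difference 0.115, adjusted p = 0.109). With the overlap coefficient both differences were negative, −0.0689 against H3K4me2 (exact permutation test, adjusted p = 0.111) and −0.0563 against H3K4me3 (adjusted p = 0.295). The direction of these differences thus depends on the overlap measure.

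Core bases lay nearer to genes than single-list bases of every list. The median distance to the nearest protein-coding TSS (canonical transcript, GENCODE release 44) was 29.4 kb for the core, against 58.1 kb for single-list bases of 710795, 62.1 kb for A-4031-050, 64.4 kb for ab8895, 93.6 kb for 5326 BF and 150 kb for 39635. The mean difference was −56.3 ± 38.7 kb (SD, n = 5 lists). In gene bodies lay 61.2% of core bases, against 55.8% for ab8895, 51.1% for 710795, 47.5% for A-4031-050, 42.0% for 5326 BF and 38.9% for 39635. The mean difference was 14.2 ± 6.80 percentage points, higher in the core for all 5 lists. Each of these 2 differences had p = 0.0625 in an exact two-sided sign-flip permutation test, the smallest that 5 lists allow, and 0.0729 after Benjamini-Hochberg adjustment over 7 measures. No measure could therefore pass 0.05, and the 5 differences share 1 core.

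Close to a TSS the lists did not all point the same way. Within 1 kb of a TSS lay 2.502% of core bases, against 3.17% of the single-list bases of A-4031-050, 2.29% of ab8895, 1.75% of 710795, 1.00% of 5326 BF and 0.650% of 39635. The core share was higher for 4 of 5 lists and lower for A-4031-050, with a mean difference of 0.728 ± 1.01 points (exact sign-flip permutation test, p = 0.1875). It was 0.282 points without A-4031-050 and 0.415 points without 710795. Runs of core bases had a median width of 631 bases, against single-list runs of 441 bases for 39635 and 244 to 283 bases for the other 4 lists. The mean difference was 332 ± 80.8 bases (p = 0.0625 in the same exact test, all 5 lists). A core run ends where any list ends, so its width is set by all 5 lists.

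Base composition also differed between the classes. G and C made up 44.3% of core bases, against 41.7 ± 2.18% of single-list bases (SD, n = 5 lists), and CpG occurred 13.0 times per kb in the core, against 10.7 ± 2.26 per kb. The G+C difference was 2.60 ± 2.18 points and the CpG difference 2.38 ± 2.26 per kb, each higher in the core for all 5 lists (exact sign-flip permutation test, p = 0.0625 each, adjusted p = 0.0729). The spread came largely from 39635, whose single-list bases had 38.0% G+C and 7.18 CpG per kb. Single-list bases of A-4031-050 came closest to the core, with 43.4% G+C and 12.8 CpG per kb.

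The intermediate classes filled the range between these ends. From 1 to 5 lists, the median distance to a TSS was 134, 84.4, 56.1, 38.7 and 29.4 kb, against 199 kb for bases in no list and 87.9 kb for the genome. The share in gene bodies was 40.5, 47.7, 54.3, 60.3 and 61.2%, against 44.7% for the genome. The share within 1 kb of a TSS was 0.932, 1.33, 1.64, 1.90 and 2.502%, against 1.28% for the genome. Each step of support thus brought bases nearer to genes. The value for bases in 1 list is mostly that of 39635: single-list bases of 39635 and 5326 BF lay farther from a TSS than the genome median, and those of the other 3 lists nearer. The exonic share did not follow every step: it was 1.69, 2.56, 3.65, 4.35 and 3.82%, highest at 4 lists. Of core bases, 50.3% lay 5 to 50 kb from a TSS and 35.5% beyond 50 kb.

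The deposited value of a peak was higher in core peaks than in single-list peaks of the same list. This value, the fourth column of the lists, is the authors' own signal per peak on a scale that no header names, and it was compared within each list only. A peak was called core or single-list when at least 0.5 of its bases fell in the class. The median percentile was 87.8 for core peaks of ab8895, against 59.5 for its single-list peaks. In 39635 it was 87.1, against 27.4. In 5326 BF it was 88.2, against 58.9. In A-4031-050 it was 80.1, against 57.4, and in 710795 it was 60.4, against 54.7. The mean was 80.7 ± 11.8 for core peaks and 51.6 ± 13.6 for single-list peaks, a difference of 29.1 ± 19.6 percentile points (SD, n = 5 lists, exact sign-flip permutation test, p = 0.0625, adjusted p = 0.0729). Only 39635 had single-list peaks well below its own median, and 710795 had the smallest difference.

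Ranked by the deposited value, the lowest quintile of peaks held few core bases and the highest quintile many. The core share of peak bases in the lowest and highest quintiles was 2.24 and 64.7% in ab8895, 2.40 and 70.8% in 39635, and 2.53 and 63.4% in 5326 BF. It was 8.36 and 66.9% in A-4031-050, and 40.1 and 76.3% in 710795. Single-list bases did not simply decline over the quintiles: in 39635 they fell to 2.69% of peak bases in the highest quintile, against 52.3% in the lowest, while in the other lists they stayed between 0.972 and 5.18% in every quintile. Across the 299378 core runs of known value in all lists, Spearman's rho between the values of the overlapping peaks of 2 lists was 0.322 to 0.736 over the 10 pairs, with a median of 0.601. It was highest for ab8895 with 5326 BF and lowest for 39635 with 710795. Runs under 1 peak share that peak's value, so this is a description over runs.

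**Figure D2:**
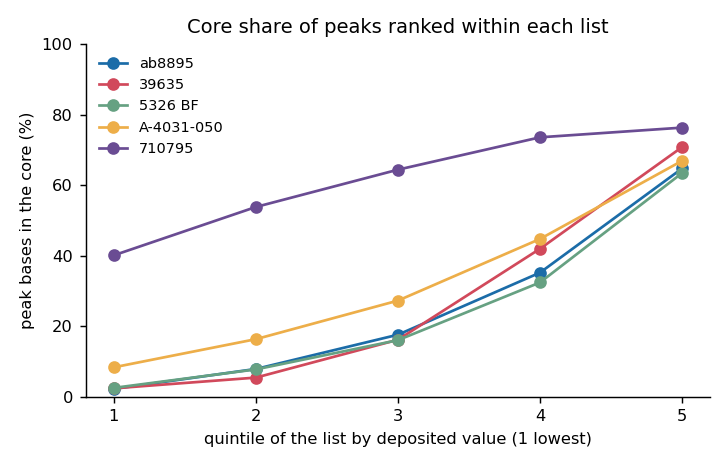
Share of peak bases in the core (%, vertical axis) for the peaks of each H3K4me1 list, divided into quintiles by the deposited value within the list (horizontal axis, lowest at 1). All 5 lines climb at each step, 4 of them to between 63.4 and 70.8% in the highest quintile, and 710795 starts at 40.1%.

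Wide peaks also held more of the core. In ab8895 the core share of peak bases was 65.3% in peaks over 10 kb, against 1.94% in peaks under 500 bases. In 5326 BF it was 69.5%, against 2.30%, and in A-4031-050 it was 75.9%, against 7.21%. In 710795 it was 82.7%, against 34.5%. In 39635 it was 32.6%, against 2.16%, and 76.1% of its peaks were over 10 kb wide. Merged over all 5 lists, the peaks formed regions of which 10.3% reached a core base. These regions had a median width of 46842 bases and held 74.7% of the union. Another 60.6% of regions were never in more than 1 list, with a median width of 303 bases and 2.70% of the union.

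Single-list bases of 39635 were placed unlike those of the other 4 lists. Of those of 39635, 56.3% lay in a merged region that also held core bases and 0.477% in a region of no other list, and their median distance to the core was 16.4 kb. Of those of the other 4 lists, 1.92 to 9.44% lay in a region with core bases and 33.6 to 73.2% in a region of no other list, at median distances of 179 to 597 kb. Single-list bases of 39635 thus lay mostly in regions shared with the other lists, and those of 710795 mostly in isolated peaks (73.2%). A region joins whole peaks, and those of 39635 were the widest (median 25008.5 bases). This contrast is therefore not separate from peak width. Over 10 kb from any core base lay 58.4% of the single-list bases of 39635, against 86.0 to 95.0% in the other lists.

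Lists of other H3K4 antibodies, which took no part in defining the classes, covered more of the core than of the single-list bases. The H3K4me2 list of ab7766 covered 93.4% of the core, against 15.1% of single-list bases. The 9725 list covered 99.6%, against 45.2%, the 710796 list 66.6%, against 3.89%, and the EMD Millipore 05-1338 list 14.8%, against 0.725%. The mean log2 ratio of core to single-list coverage was 3.06 ± 1.49 over the 4 H3K4me2 lists, positive in 4 of 4 (exact sign-flip permutation test, p = 0.125, the smallest possible, adjusted p = 0.1875). Over the 8 H3K4me3 lists it was 2.85 ± 0.61, positive in 8 of 8 (exact sign-flip permutation test, p = 0.00781, the smallest possible, adjusted p = 0.0234). The 8 values are not independent. They come from 1 cell line and share 1 core and 1 set of single-list bases. The Jaccard index between pairs of H3K4me3 lists was 0.0235 to 0.865. The difference between the 2 targets was 0.21 on the log2 scale (exact permutation test, p = 0.731). Single-list bases are mostly those of 39635, and without that list the mean log2 ratios were 2.26 under H3K4me2 lists and 2.06 under H3K4me3 lists. The call for H3K4me3 lists was lost without the 12-cycle libraries (exact sign-flip test, p = 0.0625, adjusted p = 0.1875), where 5 lists remain. It was also lost without the AR17 libraries (exact sign-flip test, p = 0.03125, adjusted p = 0.0938), where 6 lists remain. Each p was the smallest that the remaining lists allow, and the mean log2 ratios were 3.16 and 2.72. These losses therefore do not show that the ratio depends on those libraries. In percentage points, where wide lists weigh more, the H3K4me2 lists differed more between core and single-list bases than the H3K4me3 lists did (difference 40.9 points, exact permutation test, adjusted p = 0.0152).

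The H3K4me3 lists covered little of either class, apart from the wide ones. The ab8580 list covered 70.6% of the core, against 13.8% of single-list bases, and the EMD Millipore 07-473 list 21.4%, against 1.65%. The other 6 covered 1.75 to 5.03% of the core, against 0.234 to 0.566% of single-list bases. The authors' corrected H3K4me1 list covered 97.2% of the core, against 4.84% of single-list bases. It was computed from ab8895 among others and is not independent of the 5 lists. The H3K27me3 list of Cell Signaling Technology 9733 covered 94.4% of the core, against 86.9% of single-list bases. It covered 69.7% of the genome, and the H3K9me3 list 97.4%, so neither separates the classes well.

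**Figure D3:**
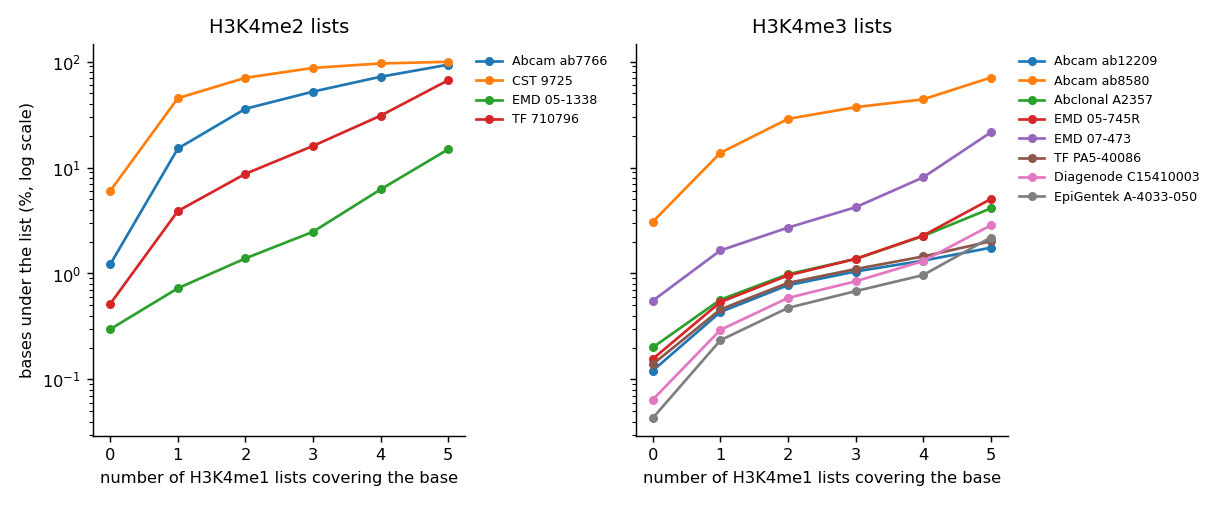
Share of bases (%, vertical axis, log scale) covered by each of the 4 H3K4me2 lists (left) and 8 H3K4me3 lists (right), by the number of H3K4me1 lists over the base (horizontal axis, 0 to 5). Every line climbs at each step, from 0.0432 to 6.04% at 0 lists up to 1.75 to 99.6% at 5 lists.

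At coding TSS the core dipped. The TSS base itself was core for 19.7% of the 19970 coding genes, against 46.3% at 1200 bases upstream and 48.8% at 1500 bases downstream, the highest points on either side. At 10 kb the share was 35.2% upstream and 36.2% downstream. Single-list bases peaked where the core dipped, at 19.0% of TSS bases, against 8.33% at the upstream point and 7.50% at the downstream point. The TSS base was in no list for 22.7% of genes.

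**Figure D4:**
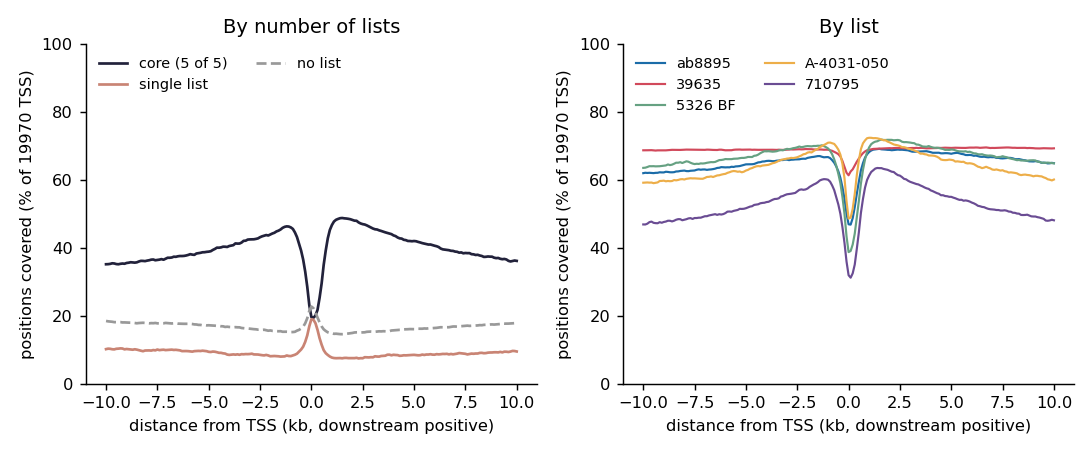
Share of 19970 coding TSS (%, vertical axes) whose base at a given distance (kb, horizontal axes, downstream positive) was core, single-list or in no list (left), and was covered by each H3K4me1 list (right). The core falls to 19.7% at the TSS between shoulders of 46.3 and 48.8%, and the line of 39635 dips least among the 5 lists.

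The core share at the TSS base itself was lower in promoters with more CpG. In promoters split into quartiles by CpG in the 2 kb around the TSS (median 23, 78, 114 and 162 CpG), the TSS base was core for 35.9, 20.8, 14.0 and 7.85% of genes, low to high. The TSS base was in no list for 22.0, 20.2, 19.9 and 28.9% of genes, which did not follow every step. A gap at the TSS, defined as a TSS base in no list with core bases within 3 kb on both sides, was found at 627 promoters, 3.14% of all. Over the same quartiles its share was 0.0801, 2.24, 3.89 and 6.35%. A core base within 1 kb of the TSS was found at 46.7, 63.4, 67.0 and 60.8% of promoters, lowest in the CpG-poorest quartile. A gap needs core bases nearby, so its share also depends on these values. MED13L and CDC20, whose CpG-rich promoters are printed above, had core bases on both sides and a TSS in 1 and 2 lists. OSBPL3, which encodes an oxysterol-binding protein family member, had its TSS in 0 lists, with 2166 core bases in the 3 kb upstream and 2675 in the 3 kb downstream.

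A base of the core lay within 1 kb of the TSS at 11883 coding promoters (59.5%). Promoters with peaks from 0, 1, 2, 3, 4 and 5 lists numbered 2136, 837, 928, 1207, 2721 and 12141, so 60.8% were reached by all lists. The promoter share was 68.1% (13597 promoters) when 39635 was left out. Below, a locus is a gene body with 10 kb on either side, and its core share is the percent of its bases in all 5 lists. The median locus of all coding genes was 34.6% core. Against the 59.5% of all coding promoters, a core base was found at 73.1% of erythroid, 66.7% of megakaryocyte and 80.0% of myeloid promoters. The share was 72.2% for cell cycle, 56.25% for housekeeping, 33.3% for neural and 70.6% for H3K4 writer and eraser list promoters. No gene list below was tested against all coding genes.

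Erythroid loci had a median core share of 58.0%, and 19 of 26 of their promoters held a core base (22 of 26 without 39635). NFE2, an erythroid and megakaryocytic transcription factor, was 93.1% core and TAL1, a master regulator of blood formation, 91.5%. LMO2, which bridges TAL1 and GATA factors, was 89.2% core, HBG1 (fetal gamma globin) 88.5%, and NPRL3, whose introns hold the alpha-globin enhancers, 82.3%. KLF1, the activator of adult beta globin, was 65.6% core and TFRC, the transferrin receptor, 63.3%. HBA1 (alpha globin) was 37.0% core, with 43.2% of its locus in 39635 and 76.1 to 87.2% in the other lists.

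GATA1, the main erythroid transcription factor, was 0% core although 4 lists covered nearly all of its locus. These were ab8895 at 94.8%, 5326 BF at 97.3%, A-4031-050 at 97.1% and 710795 at 96.2%, while 39635 covered 0%. A locus with no base in 39635 is 0% core whatever the other 4 lists cover. GYPB, a glycophorin of the red cell surface, was also 0% core, but there no list covered much: 94.4% of the GYPB locus was in no list. GYPB, HBG1, HBA1 and FCGR3A have near-identical copies, and how reads that match several places were handled is not given in the sources used here.

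Megakaryocyte loci had a median core share of 76.9%, with a core base at 8 of 12 promoters (66.7%, against 59.5% of all coding promoters). TUBB1, the platelet beta tubulin, was 95.0% core and PPBP, a platelet chemokine, 89.3%. GP9, part of the von Willebrand factor receptor, was 0% core with 53.8% of its locus in 4 lists and none of it in 39635, and VWF was 0% core with 85.9% in no list. Myeloid loci had a median of 55.3% with a core base at 12 of 15 promoters. CEBPE, a granulocyte transcription factor, was 98.2% core and LYZ (lysozyme) 90.9%, while CTSG (cathepsin G) and FCGR3A (an Fc receptor) were 0% core with 98.0 and 92.7% of their loci in no list.

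The median core shares of the lists of other tissues were below that of all coding genes, while the promoter shares of the lymphoid (61.1%) and liver (53.3%) lists were near the 59.5% of all coding promoters. These differences were not tested. Lymphoid loci had a median core share of 29.3%, with a core base at 11 of 18 promoters. CD79A, a part of the B-cell receptor, was 86.6% core, against 0% for CD4, with 53.5% in 4 lists, and 0% for PAX5, with 76.6% in no list. No base of the CD4 or the PAX5 locus was in 39635. Liver loci had a median of 28.0% (8 of 15 promoters), from APOC3, an apolipoprotein, at 76.6% and CYP3A4, a drug-metabolising enzyme, at 68.6% to SERPINA1 and TF (transferrin) at 0%. Of the SERPINA1 locus 98.2% was in no list. The TF locus had no base in 39635 and 20.8% in all other 4 lists. Neural loci had a median of 2.48% (5 of 15 promoters), from SLC17A7, a glutamate transporter, at 73.3% and GAD1, which makes GABA, at 71.4% to SYP and SYT1, both synaptic vesicle proteins, at 0%. Of the SYP locus on chromosome X, 58.3% was in 4 lists and none in 39635, and of the SYT1 locus 80.7% was in no list.

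Genes used by most dividing cells were mixed. Cell cycle loci had a median core share of 65.2%, with a core base at 13 of 18 promoters and peaks of all other 4 lists at 16 of 18 without 39635. CDC20, which turns on the anaphase-promoting complex, was 87.4% core and CDK2, a cyclin-dependent kinase, 85.2%, while MCM5, part of the replicative helicase, and MKI67, which encodes the proliferation marker Ki-67, were 0% with no base in 39635. Housekeeping loci had a median of 67.0% (9 of 16 promoters), with RPL13A, a ribosomal protein, at 84.8% and with PGK1, a glycolytic enzyme, and POLR2A, the largest subunit of RNA polymerase II, at 0%. Neither PGK1 nor POLR2A had a base in 39635, and 16.5% of the POLR2A locus was in all other 4 lists. Loci of the list named for H3K4 methylation writers and erasers had a median of 51.2% (12 of 17 promoters). The name of the list does not give the substrate of each member. ASH2L and DPY30, subunits shared by the H3K4 methyltransferases, were 90.2 and 70.6% core. The X-linked members KDM5C and KDM6A were 0% core, with 53.8% of the KDM6A locus in 4 lists and no base of either locus in 39635.

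The longest core run in the genome, chr8:127881526-128072225 on GRCh38, was 190700 bases long and overlapped no protein-coding gene body. Next came a run of 165870 bases in JARID2, a Polycomb-associated factor, then 124412 bases in KANSL1, of a histone acetyltransferase complex, and 111225 bases in MED13L, a Mediator kinase module subunit. Runs in NFIA, TBL1XR1, SPRED2, OSBPL3, RCL1 and PRKCB were 81607 to 98933 bases long. The loci named here were 80.7 to 89.5% core as a whole, JARID2 being the highest, against a median of 34.6% over all coding genes. They were taken because they hold the longest core runs, so a high core share follows from that choice.

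The list of 39635 left long parts of the genome empty. In all, 186 stretches of at least 1 Mb held none of its peaks and added up to 736 Mb of sequenced bases, or 25.3%. They took up 97.4% of chromosome X, 89.1% of chromosome 13, 84.4% of chromosome 14 and 55.9% of chromosome 9, but 0.709% of chromosome 6. The longest was chrX:66036578-108424485 (GRCh38), with 42.4 Mb of sequence. Core shares of the union were 3.06% on chromosome X, 3.70% on 13 and 6.13% on 14 but 30.4% on 9, against 39.6% on each of chromosomes 17 and 19.

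The other lists were also thin in these stretches, but not absent. Inside and outside the stretches, ab8895 covered 8.05 and 47.0% of bases, 5326 BF 11.0 and 48.0%, A-4031-050 12.9 and 40.6%, and 710795 9.92 and 29.9%. All 4 together covered 5.24% inside, against 24.5% outside. The H3K4me2 list of 9725 covered 16.8% inside, against 63.3% outside, and the H3K27me3 list 33.4%, against 81.9%. The peaks that were called there had higher deposited values, with a median of 18.3 inside, against 10.1 outside, in ab8895, 14.6 against 8.92 in 5326 BF, 12.1 against 8.13 in A-4031-050 and 12.3 against 8.21 in 710795. They were also wider, with a median of 2755.5 bases inside, against 989 outside, in ab8895. The cause was not tested.

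These stretches held 3634 coding TSS, 18.2% of all. Of their promoters 30.1% had a base in all other 4 lists, against 76.5% outside. Of the bases in 4 lists that only 39635 missed, 65.2% lay in the stretches.

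**Figure D5:**
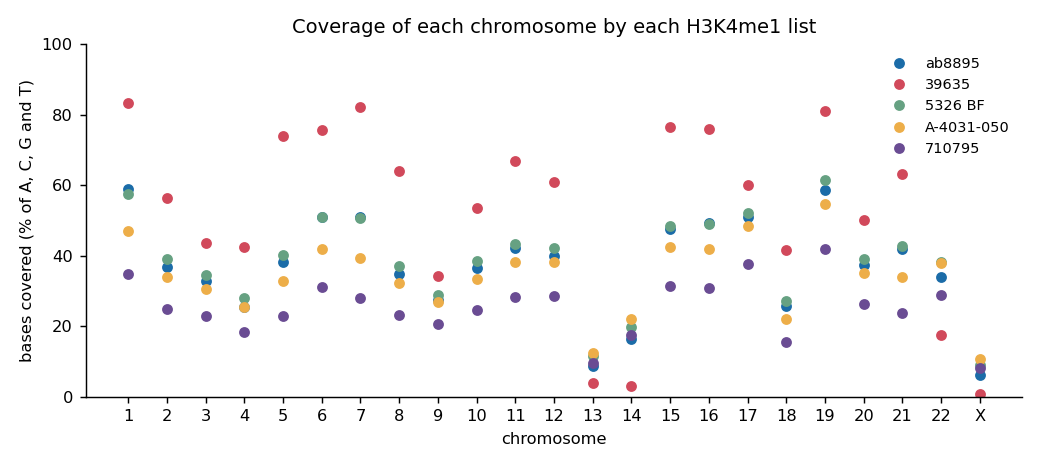
Share of the sequenced bases (%, vertical axis) of chromosomes 1 to 22 and X (horizontal axis) covered by each of the 5 H3K4me1 lists. 39635 is the highest of the 5 lists on chromosome 1 (83.3%) and the lowest on chromosomes 13 (3.79%), 14 (3.07%), 22 (17.4%) and X (0.685%).

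A single wide peak in each of 2 lists was nearly all assembly gap. In ab8895 and 5326 BF a peak of 8.10 Mb on chromosome 16 was 99.99% unsequenced bases, with the lowest deposited value of its list. It added 8.10 Mb to the bases in 2 lists and none to the core.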

How the data were processed

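Peak lists of internally calibrated ChIP-seq in K562 were used: 5 for H3K4me1, and beside them 4 for H3K4me2, 8 for H3K4me3, 1 each for H3K9me3 and H3K27me3, and the 3 corrected lists. Bowtie2, MACS2, SAMtools, bedtools and the build GRCh38 were used, per the submitters' processing notes. The sources used here give no tool versions, calling settings or meaning of high confidence. Each library has its own list, without pooling of antibodies. The 3 corrected lists are the exception, because the authors computed them from several libraries, ab8895 among them. With each H3K4me1 peak the authors deposited 1 signal value. No header names its scale, so it was compared within a list, apart from 1 set of medians in the closing section. Read depth is unknown, so no counting interval was computed.

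Peaks on chromosomes 1 to 22 and X were merged within a list, and the genome was divided at every list and gene boundary into pieces of at most 500 bases. Distances were taken from piece midpoints to the canonical TSS of 19970 protein-coding genes (GENCODE release 44). Core and single-list bases were compared by exact two-sided sign-flip permutation over lists, and targets by exact permutation of antibodies, with Benjamini-Hochberg adjustment within families of 7, 3 and 2 tests and a threshold of 0.05. Counting was tested on simulated lists. Named genes were, from each gene list, the 2 with the highest and the 2 with the lowest core share of the locus, the 10 coding genes under the longest core runs, and GATA1, TAL1, LMO2, KLF1, HBG1, HBA1, NPRL3 and TFRC. Some genes and sequences that this rule takes are not reported here. Members, gene lists and tests were chosen with earlier results of these data known. The share of repeats was planned but not computed, because the reference used carries no repeat marking. Python 3.11.15, numpy 2.4.6, pandas 2.3.3, scipy 1.17.1 and samtools 1.23.1 were used. Alternatives are given in the closing section.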

Additional observations from a re-analysis of the deposited data

Results flagged for a closer look

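Of 15 sets of values, each over the antibodies of 1 target, 4 held a list far from the others, and chance marks about 1 in 20 such sets. A list was marked when its gap to the nearest value, divided by the range, passed a critical value (0.71 for 5 lists). All 4 concern Active Motif 39635 among the 5 H3K4me1 lists. Most sets describe these same 5 lists and are linked, so the 4 marks are not independent and cannot be set against chance as a count. Its median peak width was 25008.5 bases, against 1005 bases in the next list. Its median deposited value was 25.2, against 10.2 in the next list, on a scale that no header names. Of its bases, 24.2% were in no other list, against 3.54% in the next list. The median core run exceeded its median single-list run by 190 bases, against 348 bases in the nearest list. Without 39635, 60.2% of a list was core and 8.48% in no other list on average, and the mean core-minus-single-list difference was 430.5 bases in median run width and 42.7 percentile points in the deposited value.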

How the results depend on the processing

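No paired analysis was possible because the labels give the antibodies no replicate numbers that pair lists across targets; the sign-flip tests set each list's own single-list bases against the shared core. Of 237 recomputed values, 207 kept their direction and their side of the threshold or stayed within the spread. The 207 include tests that could not pass the threshold, namely those of the core-minus-single-list differences and of the ratio under H3K4me2 lists. They also include values that a setting could not change, such as the difference in agreement against H3K4me2 when an H3K4me3 list was left out. This count is therefore no measure of how stable the results are. The 7 mean differences between core and single-list bases kept their direction under every alternative run. Their tests could not pass the threshold in any of them, and their sizes moved. The exact sign-flip permutation test gave p = 0.125 at equal list length for gene bodies and for CpG. For CpG with peaks at or above the median, the exact sign-flip permutation test also gave p = 0.125. For the deposited value with a core of 4 or 5 lists, the exact sign-flip permutation test gave p = 0.125. With all 5 lists pointing the same way, the exact sign-flip permutation test gives p = 0.0625. Not all lists therefore shared the direction in these cases. Equal list length was reached by keeping the peaks of highest deposited value, so it selects on peak strength as well as length. At equal list length the differences were 1374.8 bases in run width, against 332, 1.22 CpG per kb, against 2.38, 1.49 points in G+C, against 2.60, 9.12 points in gene bodies, against 14.2, and −35.4 kb to the TSS, against −56.3. With peaks at or above the median, run width differed by 1295 bases, G+C by 1.69 points and bases within 1 kb by 1.26 points (1.13 at equal length, 0.728 with all peaks). The difference within 1 kb was 0.282 without A-4031-050 and 0.415 without 710795. Without the stretches that 39635 left empty, the distance differed by −88.4 kb. The deposited value differed by 17.3 percentile points with a core of 4 or 5 lists, against 29.1. It differed by 48.3 with peaks at or above the median and by 48.5 at equal length. In these 2 settings percentiles were ranked anew among the peaks kept, so their sizes cannot be set against 29.1. With a core of 4 or 5 lists, 69.5% of a list was core and 72.7% of promoters held a core base. The promoter share was 65.0% without chromosomes 13, 14 and X, 63.4% with a window of 2.5 kb, 48.6% with 0.5 kb, 53.2% with peaks at or above the list median of the deposited value and 48.1% with lists shortened to equal length. It was 60.0 to 68.1% without 1 list. The overlap coefficient was 0.859 in place of a Jaccard index of 0.558, and with it the differences in agreement were −0.0689 against H3K4me2 and −0.0563 against H3K4me3. Without 1 list these differences in Jaccard index were 0.107 to 0.362 and 0.115 to 0.258, and that against H3K4me2 passed (adjusted p = 0.0357 in the exact permutation test) without ab7766. The log2 ratio under H3K4me3 lists lost its call without the 12-cycle libraries (3.16) and without the AR17 libraries (2.72), where 5 and 6 lists remain. Each p was then the smallest that the remaining lists allow, so these losses do not show a dependence on those libraries. The difference between H3K4me2 and H3K4me3 lists was −0.53 without the 12-cycle libraries, −0.0819 with peaks above the median, −0.14 at equal length, −0.23 to 0.84 without 1 list and 40.9 in percentage points. The cause was not tested. Leaving out peaks over 1 Mb, or the stretches without a 39635 peak, was chosen after seeing the data and changed no call. The repeat share was not run. The number of antibodies, 4 to 8 per target, limits precision.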

Other observations

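The letters AGATAA or, on the other strand, TTATCT were searched in the central 300 bases of runs at least that long. They were found in 20.2% of 236181 core windows, against 22.7% of 388852 single-list windows. All 300-base windows of the genome held them at 20.9%, and RefSeq promoters at 10.3%. The same core windows held 4.09 CpG on average, against 2.49 in the single-list windows and 3.00 in all windows. Mean G+C was 44.9% in core windows, 39.3% in single-list windows and 40.9% in all windows. The search was not adjusted for base composition, so the shares with AGATAA are not compared at equal G+C.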
